A study of Mus musculus with 12 samples.

Results

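The genes of the transforming growth factor-β (TGFβ) superfamily were followed in islets of Tg7 mice, which overexpress miR-7a specifically in pancreatic β-cells, and of their wild-type (Wt) littermates. The genes were chosen by mouse symbol: Tgfb1 to Tgfb3 and their receptors Tgfbr1 to Tgfbr3, every Bmp, Bmpr and Gdf gene, the inhibin and activin subunits (Inh), the activin receptors (Acvr), Smad1 to Smad9, the latent TGFβ binding proteins Ltbp1 to Ltbp4, every follistatin gene (Fst), and secreted antagonists such as Grem1, Nog and Chrd. This rule found 63 of the 37991 genes in the count table. Of these, 50 had enough reads to be tested. The other 13 stayed below the filter and together held few reads: Bmp10, Gdf1 and Gdf7 had no read in any library, and the other 10 had between 2 and 55 reads over all 12 libraries, the highest total being that of Nog (noggin), a secreted BMP antagonist. The Gdf1 model lies wholly within that of Lass1 on the same strand (overlap of 1823 bases). Reads there cannot be assigned with certainty, so the lack of counted reads does not give the level of Gdf1.

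Bulk RNA-seq had been made from islets of male C57BL/6 mice in 4 groups with 3 libraries each: 2-week-old (2w) Wt, 2w Tg7, 12-week-old (12w) Wt and 12w Tg7. The younger mice were normoglycaemic and the older Tg7 mice diabetic, as the study describes them. Each library was a pool of at least 3 animals, so the p values below measure the spread between pools and not between single mice, and no source used here names the promoter that drives the transgene. Mature miR-7 was not analysed here.

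Libraries held between 11610697 and 17515758 reads counted on genes. Ins1 and Ins2 together took between 10.1% and 15.4% of the counts in 2w Wt libraries and between 1.84% and 4.09% in 2w Tg7 libraries. At 12w these shares were 30.0%, 27% and 14.8% in Wt replicates 1, 2 and 4 and between 8.08% and 8.24% in Tg7. The 12w Wt replicate 4 thus stood apart from the other 12w Wt libraries in insulin share, and member calls at 2w or 12w that turned on it are given with and without it. In all 12 libraries the β-, α-, δ- and PP-cell markers were present, and 7 of 8 β-cell markers were lower in Tg7 islets at each age. Whole islets also hold non-endocrine cells. The summed level of 11 stellate cell, pericyte and fibroblast markers ranged from 360 to 505 CPM (counts scaled to a common library size with TMM factors) in 2w Wt and from 541 to 716 CPM in 2w Tg7 libraries, with 6 of 11 called higher. At 12w it ranged from 93.3 to 156 CPM in Wt and from 403 to 424 CPM in Tg7, with 10 of 11 higher. The sum of 9 endothelial markers overlapped between the groups at 2w (810 to 1069 CPM in Wt and 914 to 1042 CPM in Tg7), whereas at 12w it ranged from 346 to 451 CPM in Wt and from 717 to 778 CPM in Tg7, with 7 of 9 higher. The sum of 6 Schwann cell markers ranged from 138 to 143 CPM in 2w Wt and from 167 to 198 CPM in 2w Tg7, and from 107 to 140 CPM in 12w Wt and 188 to 192 CPM in 12w Tg7, with 3 of 6 higher at 12w. The sum of 6 ductal markers ranged from 407 to 594 CPM in 12w Wt and from 702 to 991 CPM in 12w Tg7, with 2 of 5 tested higher. No marker of the stellate, endothelial and Schwann cell lists was at 0 in a whole group. The sum of 4 mesothelial markers was between 91.6 and 133 CPM in 2w Wt and between 28 and 37.3 CPM in 2w Tg7, and between 34.6 and 56.1 CPM in 12w Wt and between 1.05 and 1.71 CPM in 12w Tg7. In bulk RNA, fewer cells of a type and less RNA per cell cannot be told apart. The part of these cell types in the results below was not tested.

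TGFβ superfamily ligands are secreted dimers that bind pairs of type I and type II serine/threonine kinase receptors. TGFβ, activin and nodal ligands act mainly through Smad2 and Smad3, and BMPs and several GDFs mainly through Smad1, Smad5 and Smad9, with Smad4 as the common partner and Smad6 and Smad7 as inhibitors. Outside the cell, TGFβ is stored in a latent complex with Ltbp proteins, and proteins such as follistatin, noggin and chordin trap activins or BMPs. In islets, activins and BMPs are known to bear on endocrine development and insulin secretion, and TGFβ is known for its role in matrix production by mesenchymal cells.

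Messages were searched for a match to bases 2 to 8 of the mature miRNA of the transgene. Its sequence is shown first with that seed in capitals (RefSeq, GRCm38.p6, chr7:78888295-78888317, plus strand). Below it stand 6 superfamily 3′ UTR sites of tested genes, with the matched bases in capitals (mm9 genome, GENCODE M1 UTRs). A match to GTCTTCC on the message strand was counted as a site, and GTCTTCCA as a site of 8 bases. Other site types, such as matches to fewer bases of the seed, were not searched.
miR-7a-5p: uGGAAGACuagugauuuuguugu
Tgfbr2: cgctctgctgctggGTCTTCCAgc
Tgfb2: aggcagagttcaggGTCTTCCgc
Bmp5: ggagtggggctctaGTCTTCCAac
Grem1: ccccgaatctctgaGTCTTCCAta
Bmpr1b: aataataacaaaagGTCTTCCta
Smad9: gaagccatcttcccGTCTTCCcg

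Sites were found in 7 of the 50 tested superfamily genes (14%) against 14.4% of the 14406 tested genes with an annotated 3′ UTR. The gene not shown is Smad4. The Tgfbr2 site lies at chr9:115998484-115998491 on the minus strand, 1005 bases into the 3′ UTR. That of Tgfb2 lies at chr1:188473667-188473673 on the minus strand, 106 bases into an annotated 3′ UTR of 1240 bases. The longest annotated 3′ UTR of Tgfb2 has 2262 bases, and which of its UTRs the islets use was not examined. Of these 7 genes, Tgfbr2 was called higher at 12w and none was called lower at either age by edgeR, with 1 (Smad4 at 12w) lower at an unadjusted p below 0.05 and 0 by DESeq2. The receptors that were lower, Acvr1c and Tgfbr1, had no such match in annotated 3′ UTRs of 7465 and 4154 bases. A match is a description of letters and not a measured binding site, and a gene without one may hold another type of site.

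In Tg7 islets at 2w, 8 of the 50 tested superfamily genes rose and 1 fell. The genes that rose included the ligands Bmp3, Bmp6, Bmp7 and Gdf10, the secreted proteins Fstl1 and Fstl3, and Ltbp2, and the gene that fell was the receptor gene Acvr1c. These were 16% and 2.0% of the tested members, against 6.07% higher and 4.55% lower among all 15961 genes tested. At 12w, 19 rose and 2 fell, or 38% and 4.0% of the tested members, against 12.5% and 11.2% of all tested genes. Bmp3, Bmp6, Bmp7, Gdf10, Fstl1 and, in the other direction, Acvr1c were among those called at both ages. The median log2 fold change of the tested members was 0.32 at 2w and 0.61 at 12w, and that of all tested genes 0.03 and −0.01. A gene was called when its adjusted p from edgeR's quasi-likelihood test (Benjamini-Hochberg over all 15961 genes) was below 0.05, and 16 members at 2w and 27 at 12w had an unadjusted p below that threshold. Without the 12w Wt replicate 4 the calls were 11 higher and 2 lower at 2w and 20 higher and 1 lower at 12w. With library size in place of TMM factors, which moved the median of all genes at 12w to 0.43, 28 members were called at 12w, each of them higher.

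**Figure D1:**
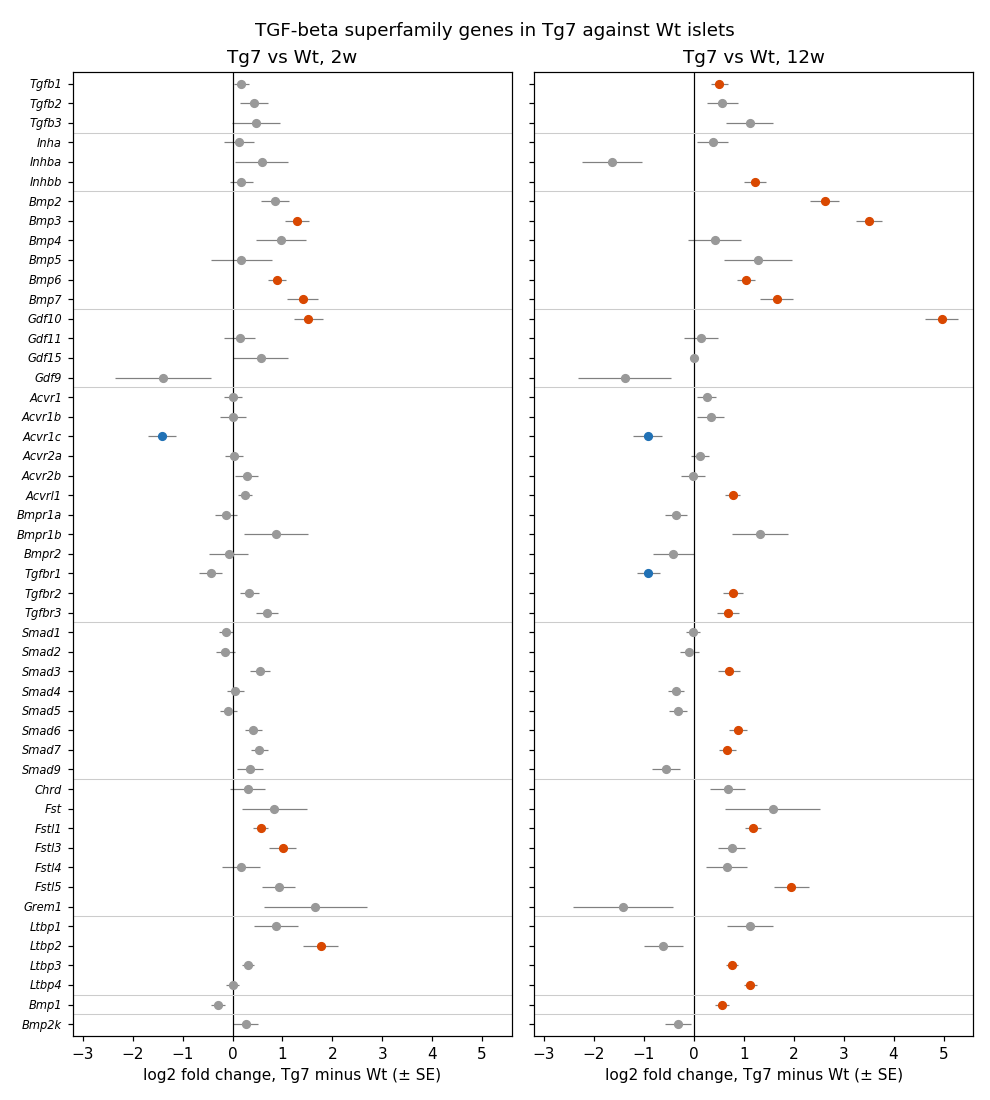
Log2 fold change (x axis, ± SE) of 49 of the 50 tested superfamily genes in Tg7 against Wt islets at 2w (left) and 12w (right), in blocks by role from TGFβ ligands (top) to the protease Bmp1 and the kinase Bmp2k (bottom). Orange points are called higher, blue points lower and grey points not called, with 3 libraries per group, and Gdf15 at 12w is drawn without an error bar because its estimate is 0.0. The points farthest to the right at 12w are Gdf10 at 4.96 and Bmp3 at 3.51.

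At 12w the highest fold changes of the tested superfamily genes were those of the ligand genes Gdf10, Bmp3 and Bmp2. Of 6 tested BMP ligands, 3 rose at 2w (50%, against 6.07% of all tested genes) and 4 at 12w (66.7%, against 12.5%). Of 4 tested GDF ligands Gdf10 rose at each age (25%). The others were low: Bmp4, Bmp5, Gdf9, Gdf11 and Gdf15 had group means between 0.181 and 4.61 CPM, and their log2 fold changes lay between −1.39 (Gdf9 at 2w) and 1.29 (Bmp5 at 12w) without a call.

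Gdf10 (chr14:34736773-34749700, plus strand, mm9), also called Bmp3b and the closest relative of Bmp3, was at 1.72, 1.69 and 0.957 CPM in the 2w Wt libraries and at 3.30, 4.35 and 4.76 CPM in the 2w Tg7 libraries. It was at 1.01, 0.476 and 1.07 CPM in 12w Wt and 21.7, 29.1 and 28.7 CPM in 12w Tg7 islets. The Tg7 libraries lay above all Wt libraries at each age, and the lowest 12w Tg7 library was far above the highest 2w Tg7 library. Gdf10 rose 2.86-fold at 2w (log2 fold change 1.52 ± 0.29 (SE), adjusted p = 0.00519) and 31.1-fold at 12w (log2 fold change 4.96 ± 0.33 (SE), adjusted p = 3.07e-07). The rise was larger at 12w than at 2w, with a difference of 3.44 ± 0.44 on the log2 scale (adjusted p = 0.00165).

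Bmp3 (chr5:99283458-99309979, plus strand, mm9), an atypical member that opposes signalling by other BMPs, was at 2.73, 3.24 and 3.14 CPM in the 2w Wt libraries and at 8.95, 7.07 and 6.20 CPM in the 2w Tg7 libraries. In older mice it was at 2.39, 1.82 and 3.93 CPM in 12w Wt and 31.7, 31.1 and 31.6 CPM in 12w Tg7 islets, where the Tg7 pools were nearly identical. Bmp3 rose 2.44-fold at 2w (log2 fold change 1.29 ± 0.24 (SE), adjusted p = 0.00405) and 11.4-fold at 12w (log2 fold change 3.51 ± 0.26 (SE), adjusted p = 7.62e-07). Here too the effect differed between the ages, by 2.22 ± 0.35 on the log2 scale (adjusted p = 0.00651). Among the 10 BMP ligand genes Bmp3 ranked second per kilobase of exon in 12w Wt islets (0.873 CPM per kb, behind Bmp6 at 1.96) and first in 12w Tg7 islets (10.1 CPM per kb, ahead of Bmp2 at 4.99 and Bmp6 at 4.07).

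Bmp2 (chr2:133377895-133388621, plus strand, mm9), a classical Smad1/5/9 ligand, was at 2.55, 4.12 and 3.30 CPM in the 2w Wt libraries and at 6.28, 6.94 and 4.81 CPM in the 2w Tg7 libraries. At 12w it was at 4.03, 3.09 and 1.73 CPM in 12w Wt and 18.7, 18 and 16.5 CPM in 12w Tg7 islets. The groups did not overlap at either age, but only the 12w difference was called (log2 fold change 2.62 ± 0.29 (SE), adjusted p = 3.15e-05, 6.15-fold), that at 2w being 0.86 ± 0.28 with an adjusted p of 0.0655. The difference between the ages was 1.76 ± 0.40 (adjusted p = 0.0525) and was not called. Without the 12w Wt replicate 4 the 2w value was 0.86, adjusted p = 0.0199.

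Bmp6 (chr13:38436995-38592183, plus strand, mm9), best known as an iron-sensing ligand of the liver, was at 5.87, 6.77 and 6.59 CPM in the 2w Wt libraries and at 11.4, 12.1 and 12 CPM in the 2w Tg7 libraries. It was at 6.17, 8.25 and 6.66 CPM in 12w Wt and 14.5, 13.3 and 16.1 CPM in 12w Tg7 islets. These were even values within each group, and Tg7 was about as far above Wt at 2w (log2 fold change 0.89 ± 0.17 (SE), adjusted p = 0.00555) as at 12w (log2 fold change 1.05 ± 0.18 (SE), adjusted p = 0.000786). The difference between the ages was 0.16 ± 0.25 (adjusted p = 0.826). The gene model overlaps that of Txndc5 on the other strand by 236 bases. No source used here says whether reads were counted by strand, so reads in this stretch cannot be assigned with certainty.

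Bmp7 (chr2:172693513-172765822, minus strand, mm9), a ligand known from kidney and brown fat, was at 2.02, 3.31 and 2.82 CPM in the 2w Wt libraries and at 5.06, 8.76 and 7.69 CPM in the 2w Tg7 libraries. Its 12w values were 3.15, 1.82 and 1.67 CPM in 12w Wt and 6.70, 5.64 and 8.12 CPM in 12w Tg7 islets. Bmp7 rose at 2w (log2 fold change 1.40 ± 0.32 (SE), adjusted p = 0.0124) and at 12w (log2 fold change 1.66 ± 0.33 (SE), adjusted p = 0.00271), with no overlap of the groups. Leaving out 2w Wt replicate 1 or 3 ended the 2w call, with an adjusted p of up to 0.0655 and log2 fold changes of 1.22 to 1.60 over the libraries left out.

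The activin and inhibin subunits included the ligand gene with the highest level per length. Inha, the inhibin α subunit, was the most abundant ligand gene of the family per kilobase, at 33.8 CPM per kb in 12w Wt and 43.6 CPM per kb in 12w Tg7 islets. It was not called at 12w (log2 fold change 0.37 ± 0.31, adjusted p = 0.426), where the 12w Wt replicate 4 was at 20.4 CPM against 65.6 and 63.6 CPM in the other Wt libraries. Without that replicate the log2 fold change was −0.0031, adjusted p = 0.991, and with library size alone Inha was called higher (0.86, adjusted p = 0.0312). Inhbb (chr1:121312042-121318825, minus strand, mm9), the βB subunit that forms activin B, was at 31.7, 16.8 and 22.6 CPM in the 2w Wt libraries and at 22.7, 32.8 and 25.1 CPM in the 2w Tg7 libraries. It was at 20.4, 33.6 and 25.4 CPM in 12w Wt and 61.9, 64.5 and 59.4 CPM in 12w Tg7 islets. The groups overlapped at 2w (log2 fold change 0.18 ± 0.22, adjusted p = 0.664) and were apart at 12w, where Inhbb rose 2.33-fold (log2 fold change 1.22 ± 0.23 (SE), adjusted p = 0.00156). The difference between the ages was 1.05 ± 0.32 (adjusted p = 0.145). Inhba, the βA subunit, was low, at 1.53 ± 0.743 CPM (SD, n = 3) in 12w Wt and 0.489 ± 0.180 CPM in 12w Tg7 islets, and its log2 fold change of −1.65 ± 0.60 was not called although the groups did not overlap (adjusted p = 0.0618). DESeq2 called it lower (−1.67, adjusted p = 0.0366), as did edgeR without 2w Tg7 replicate 1 (−1.63, adjusted p = 0.0473). None of the 3 subunits was called at 2w by edgeR, with 0 at an unadjusted p below 0.05 and 0 by DESeq2.

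**Figure D2:**
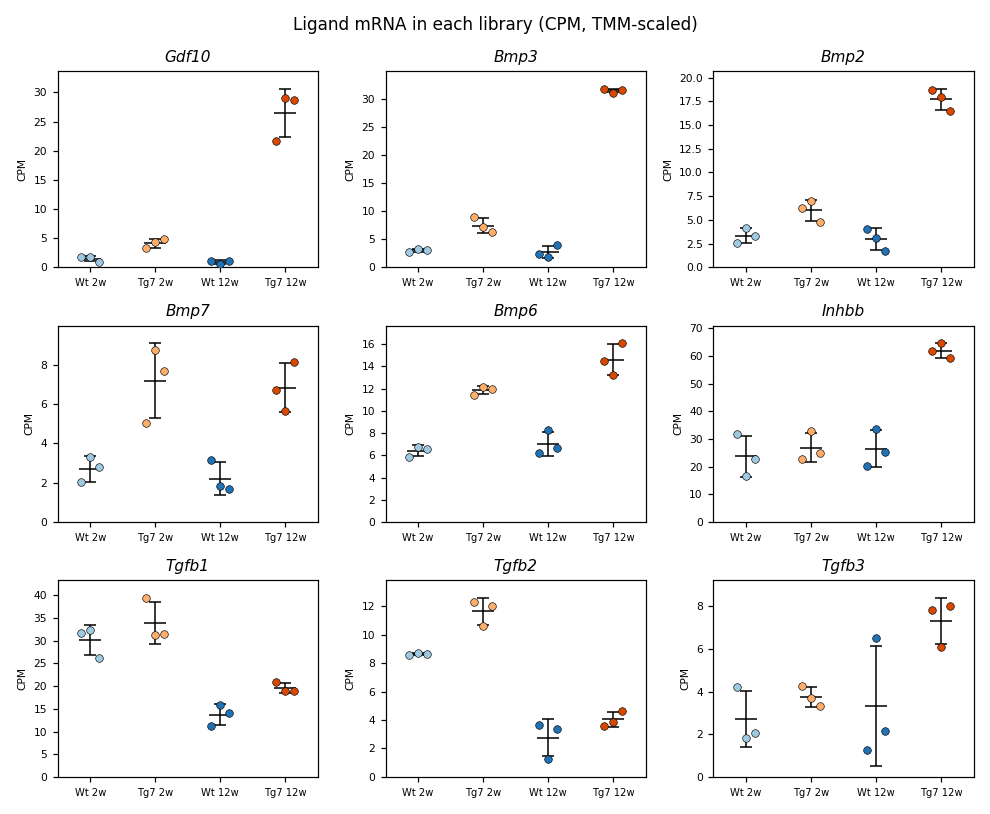
CPM (y axis, TMM-scaled, starting at 0) of 9 ligand genes in each of the 12 libraries, with 1 point per library and bars for the mean ± SD of 3 libraries per group. Gdf10, Bmp3, Bmp2, Bmp7, Bmp6 and Inhbb stand above every Wt library in 12w Tg7 islets, whereas Tgfb1 and Tgfb2 are highest in the 2w groups.

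Of the 3 TGFβ isoforms only Tgfb1 was called, at 12w. Tgfb1 (chr7:26472021-26490096, plus strand, mm9), the most abundant isoform per kilobase in every group (11.8 CPM per kb in 2w Wt and 5.35 CPM per kb in 12w Wt islets), was at 31.6, 32.5 and 26.3 CPM in the 2w Wt libraries and at 39.4, 31.2 and 31.4 CPM in the 2w Tg7 libraries. At 12w it was at 11.2, 15.9 and 14 CPM in 12w Wt and 21, 18.9 and 19 CPM in 12w Tg7 islets. All 12w Tg7 libraries were above all 12w Wt libraries, and Tgfb1 rose 1.43-fold (log2 fold change 0.51 ± 0.16 (SE), adjusted p = 0.0344), while the groups overlapped at 2w (log2 fold change 0.18 ± 0.16, adjusted p = 0.509). This call was lost without 12w Wt replicate 1 or any single 12w Tg7 replicate, with log2 fold changes of 0.37 to 0.63 and adjusted p of up to 0.122 over the libraries left out.

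Tgfb2 (chr1:188447065-188529871, minus strand, mm9) was at 8.60, 8.69 and 8.61 CPM in the 2w Wt libraries and at 12.3, 10.6 and 12 CPM in the 2w Tg7 libraries. It was at 3.65, 1.27 and 3.33 CPM in 12w Wt and 3.61, 3.87 and 4.63 CPM in 12w Tg7 islets. The Tg7 libraries were higher at 2w without a call (log2 fold change 0.43 ± 0.28, adjusted p = 0.348), and the groups overlapped at 12w (0.57 ± 0.31, adjusted p = 0.206). Tgfb3 (chr12:87397694-87419991, minus strand, mm9) was at 4.21, 1.84 and 2.07 CPM in the 2w Wt libraries and at 4.26, 3.70 and 3.32 CPM in the 2w Tg7 libraries. It was at 1.26, 6.51 and 2.13 CPM in 12w Wt and 7.83, 6.08 and 8.0 CPM in 12w Tg7 islets, where Wt replicate 2 reached the Tg7 range. Its log2 fold change was 0.47 ± 0.47 at 2w (adjusted p = 0.573) and 1.12 ± 0.47 at 12w (adjusted p = 0.104), and without 12w Wt replicate 2 it was called higher at 12w (2.06, adjusted p = 0.00368). At 2w none of the 3 isoforms was called by edgeR, with 0 at an unadjusted p below 0.05 and 0 by DESeq2. The study itself lists these isoforms from the same libraries, so their direction is not independent evidence.

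Of the 12 receptor genes, all tested, 1 fell at 2w, and 3 rose and 2 fell at 12w. At 2w this was 8.33% lower, against 4.55% of all tested genes. At 12w it was 25% higher and 16.7% lower, against 12.5% and 11.2%. Bmpr1a, a type I BMP receptor, had the highest level per kilobase in each of the 4 groups (16.9 CPM per kb in 12w Wt and 13.3 CPM per kb in 12w Tg7 islets) and was not called at either age (log2 fold change −0.13 ± 0.22 at 2w and −0.35 ± 0.22 at 12w). Its 12w direction turned without 12w Wt replicate 4, where the log2 fold change was 0.05, adjusted p = 0.814, and with library size alone (0.06, adjusted p = 0.870). No receptor gene was called higher at 2w by edgeR, with 1 at an unadjusted p below 0.05 and 1 by DESeq2 (Tgfbr3).

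Acvr1c (chr2:58119864-58210306, minus strand, mm9), which encodes ALK7, a type I receptor for activin B and nodal, was at 15.6, 23.8 and 19.8 CPM in the 2w Wt libraries and at 8.15, 5.19 and 8.73 CPM in the 2w Tg7 libraries. It was at 10.6, 7.54 and 17.2 CPM in 12w Wt and 6.93, 5.47 and 6.29 CPM in 12w Tg7 islets. Every Tg7 library was below every Wt library of its age. Acvr1c fell to 0.375 of the Wt level at 2w (log2 fold change −1.42 ± 0.29 (SE), adjusted p = 0.00662) and to 0.527 at 12w (log2 fold change −0.92 ± 0.29 (SE), adjusted p = 0.0342). The 2w call held with each library left out. The 12w call was lost without 2w Wt replicate 3, 12w Wt replicate 4 or any single 12w Tg7 replicate, with log2 fold changes of −1.17 to −0.52 and adjusted p of up to 0.174, the smallest effect being without the 12w Wt replicate 4. With library size alone it was −0.51, adjusted p = 0.243. Its gene model overlaps the antisense transcript Gm13544.

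Tgfbr1 (chr4:47366094-47427803, plus strand, mm9), the type I TGFβ receptor, was at 72.2, 76.3 and 71.1 CPM in the 2w Wt libraries and at 60.0, 52.6 and 49.5 CPM in the 2w Tg7 libraries. At 12w the values were 62.6, 46 and 109 CPM in 12w Wt and 39.1, 43.1 and 34 CPM in 12w Tg7 islets. The groups did not overlap at either age, but the 12w Wt replicate 4 was by far the highest library. Tgfbr1 fell to 0.532 of the Wt level at 12w (log2 fold change −0.91 ± 0.23 (SE), adjusted p = 0.0121), and its 2w value was not called (log2 fold change −0.44 ± 0.23, adjusted p = 0.242). At 2w it was called lower without 12w Wt replicate 4 (−0.44, adjusted p = 0.0292) and with each age fitted alone (−0.43, adjusted p = 0.0190). Without 12w Wt replicate 4 the 12w log2 fold change was −0.48, adjusted p = 0.0277. The call was lost without 12w Tg7 replicate 3 (adjusted p = 0.0611) and with library size alone (−0.50, adjusted p = 0.171).

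Tgfbr2 (chr9:115993415-116084383, minus strand, mm9), the type II receptor that binds TGFβ itself and whose 3′ UTR carries the site of 8 bases shown above, was at 25.2, 17.2 and 19.9 CPM in the 2w Wt libraries and at 28.3, 29.6 and 20.8 CPM in the 2w Tg7 libraries. It was at 8.82, 9.44 and 7.06 CPM in 12w Wt and 12.2, 16.7 and 14.7 CPM in 12w Tg7 islets. The groups overlapped at 2w (log2 fold change 0.34 ± 0.19, adjusted p = 0.291). At 12w Tgfbr2 rose 1.73-fold (log2 fold change 0.79 ± 0.21 (SE), adjusted p = 0.0137), a call that was lost only without 12w Tg7 replicate 2 among the 12 libraries left out in turn (adjusted p = 0.0655, log2 fold changes 0.67 to 0.92 over all).

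Tgfbr3 (chr5:107535589-107718648, minus strand, mm9), the co-receptor betaglycan, was at 19, 18 and 20.3 CPM in the 2w Wt libraries and at 39.4, 28.4 and 24.9 CPM in the 2w Tg7 libraries. It was at 22, 24.1 and 41.9 CPM in 12w Wt and 49.2, 46.1 and 46 CPM in 12w Tg7 islets, where Wt replicate 4 was the highest Wt library. Tgfbr3 rose 1.60-fold at 12w (log2 fold change 0.67 ± 0.22 (SE), adjusted p = 0.0395), and the 2w value was similar and not called (0.69 ± 0.22, adjusted p = 0.0604). The 2w value was called higher without 12w Wt replicate 4 (0.69, adjusted p = 0.00749), and also by DESeq2, with library size alone, without the filter and with each age fitted alone. The 12w call was lost without any single library except 2w Tg7 replicates 1 and 3 and 12w Wt replicate 4, with log2 fold changes of 0.49 to 1.03 and adjusted p of up to 0.150. Without 12w Wt replicate 4 it was 1.03, adjusted p = 0.000829.

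Acvrl1 (chr15:100958953-100975767, plus strand, mm9) encodes ALK1, a type I receptor for BMP9 and BMP10 that is known from endothelial cells. It was at 42.3, 36.1 and 34.6 CPM in the 2w Wt libraries and at 49.4, 41.5 and 43.2 CPM in the 2w Tg7 libraries. At 12w it was at 18.9, 25.1 and 23.3 CPM in 12w Wt and 32.8, 42.7 and 40.2 CPM in 12w Tg7 islets. Acvrl1 rose 1.72-fold at 12w (log2 fold change 0.78 ± 0.15 (SE), adjusted p = 0.00215) and was not called at 2w (0.25 ± 0.15, adjusted p = 0.303), where the groups overlapped. The endothelial marker sums given above likewise overlapped at 2w and were higher in Tg7 islets at 12w, and their part in it was not tested. The genes of its 2 ligands, Gdf2 (BMP9) and Bmp10, had 9 and 0 reads over all libraries.

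The remaining 7 receptor genes were not called at either age: Acvr1, Acvr1b, Acvr2a, Acvr2b, Bmpr1a, Bmpr1b and Bmpr2. Their log2 fold changes lay between −0.13 and 0.86 at 2w and between −0.41 and 1.32 at 12w. Several depended on the 12w Wt replicate 4. Bmpr2, the type II BMP receptor, was at 9.95, 4.05 and 23.7 CPM in the 12w Wt libraries, and its 12w log2 fold change went from −0.41 (adjusted p = 0.524) to 0.50, adjusted p = 0.240 without that replicate. Without 12w Wt replicate 2 it was called lower (−0.85, adjusted p = 0.0467). Acvr1b, a type I activin receptor, went from 0.33 (adjusted p = 0.407) to 0.90, adjusted p = 0.000516, and Acvr2a, a type II receptor, from 0.13 (adjusted p = 0.658) to 0.43, adjusted p = 0.0275. Bmpr1b, a type I BMP receptor, was called higher at 12w without 12w Wt replicate 1 (1.89, adjusted p = 0.0414).

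Among the 8 Smad genes, all tested, Smad3, Smad6 and Smad7 rose at 12w (37.5%, against 12.5% of all tested genes). None was called at 2w by edgeR, with 3 at an unadjusted p below 0.05 and 1 by DESeq2 (Smad7). Smad4, the common partner, had the highest level per kilobase in each group (19 CPM per kb in 12w Wt and 14.9 CPM per kb in 12w Tg7 islets), and Smad3 and Smad9 the lowest in 12w Wt islets (1.02 and 1.15 CPM per kb).

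Smad3 (chr9:63494574-63605801, minus strand, mm9), a transcription factor downstream of TGFβ and activin receptors, was at 15.2, 16 and 13.6 CPM in the 2w Wt libraries and at 26.8, 22.3 and 16.6 CPM in the 2w Tg7 libraries. It was at 5.92, 6.27 and 4.73 CPM in 12w Wt and 7.83, 8.51 and 11 CPM in 12w Tg7 islets. Tg7 libraries were above Wt libraries at each age, with a log2 fold change of 0.55 ± 0.20 at 2w (adjusted p = 0.0943), which was not called, and a 1.62-fold rise at 12w (log2 fold change 0.70 ± 0.22 (SE), adjusted p = 0.0322). The 12w call was lost without 12w Wt replicate 1 or 4 or 12w Tg7 replicate 2 or 3 (log2 fold changes 0.54 to 0.82, adjusted p of up to 0.142). Without 12w Wt replicate 4 it was 0.58, adjusted p = 0.0900.

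Smad6 (chr9:63800953-63869866, minus strand, mm9), the inhibitor that acts mainly on BMP receptors, was at 21.3, 17.7 and 20.6 CPM in the 2w Wt libraries and at 24.1, 22.2 and 33.2 CPM in the 2w Tg7 libraries. At 12w it was at 10.3, 14.3 and 10.7 CPM in 12w Wt and 21.7, 21.3 and 22.2 CPM in 12w Tg7 islets. It rose 1.84-fold at 12w (log2 fold change 0.88 ± 0.18 (SE), adjusted p = 0.00332) and was higher without a call at 2w (0.41 ± 0.17, adjusted p = 0.145). Smad7, the inhibitor of TGFβ and activin receptors, was at 32.9, 36.2 and 32.5 CPM in the 2w Wt libraries and at 54.6, 43.9 and 48.8 CPM in the 2w Tg7 libraries. It was at 18.4, 22.8 and 31.1 CPM in 12w Wt and 39.9, 41.3 and 34.2 CPM in 12w Tg7 islets. Smad7 rose 1.59-fold at 12w (log2 fold change 0.67 ± 0.17 (SE), adjusted p = 0.0122), after a 2w value just short of the threshold (0.54 ± 0.17, adjusted p = 0.0557). The 2w value was called higher without 12w Wt replicate 4 (0.53, adjusted p = 0.00982), without 12w Wt replicate 1, by DESeq2 and with each age fitted alone. Its 12w call was lost without 12w Tg7 replicate 2 (adjusted p = 0.0543).

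The other 5 Smad genes were not called. At 12w the log2 fold change was −0.01 ± 0.14 for Smad1, −0.09 ± 0.19 for Smad2, −0.36 ± 0.16 for Smad4, −0.32 ± 0.17 for Smad5 and −0.55 ± 0.28 for Smad9. Their adjusted p ranged from 0.138 for Smad4 to 0.966 for Smad1, and library size alone turned those of Smad1, Smad2, Smad4 and Smad5 positive without a reversal of any call. These values also turned on single Wt libraries. Without 12w Wt replicate 4 they were 0.15 for Smad1, 0.26 for Smad2, −0.09 for Smad4, −0.06 for Smad5 and −0.34 for Smad9, none of them called. Without 12w Wt replicate 2, Smad4 (−0.51, adjusted p = 0.0270), Smad5 (−0.51, adjusted p = 0.0235) and Smad9 (−0.79, adjusted p = 0.0443) were called lower.

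**Figure D3:**
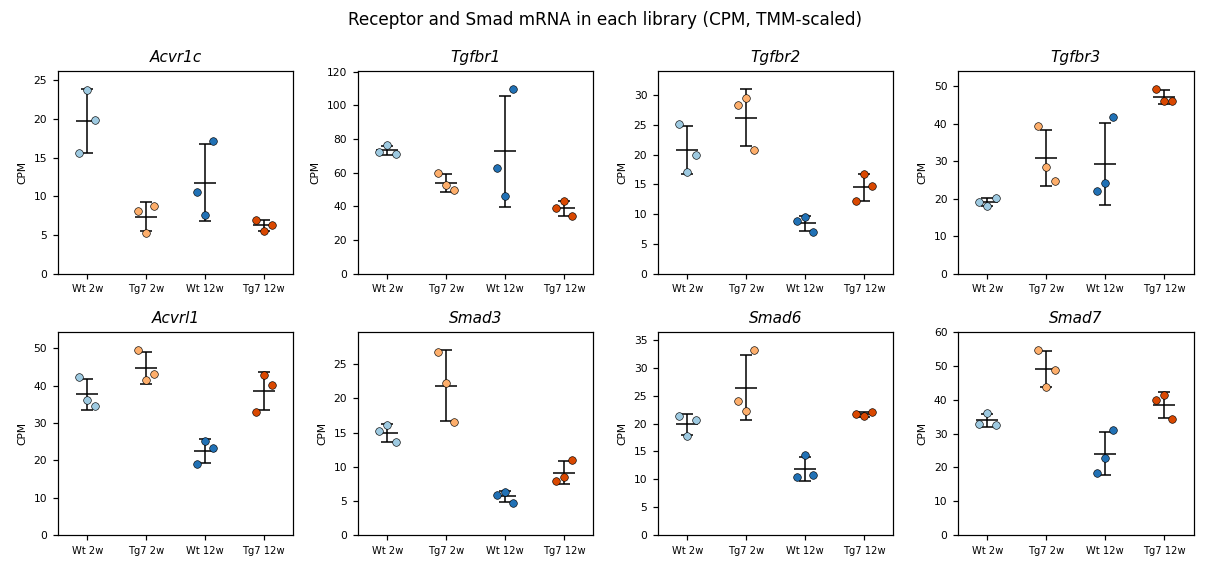
CPM (y axis, TMM-scaled, starting at 0) of the 5 receptor and 3 Smad genes called at 12w, with 1 point per library and bars for the mean ± SD of 3 libraries per group. Acvr1c and Tgfbr1 are lower in Tg7 islets at each age, with the single high 12w Wt point of Tgfbr1 at 109 CPM belonging to replicate 4, and the other 6 genes are higher in 12w Tg7 than in 12w Wt islets.

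Of 8 tested extracellular antagonists and follistatin-like genes, 3 rose at 2w, among them Fstl1 and Fstl3, and 3 at 12w, among them Fstl1 and Fstl5. This was 37.5% at each age, against 6.07% and 12.5% of all tested genes. Fstl1 (chr16:37776959-37836600, plus strand, mm9), a secreted glycoprotein typical of mesenchymal cells, was at 53.5, 38.9 and 41.8 CPM in the 2w Wt libraries and at 74.9, 56.8 and 66.4 CPM in the 2w Tg7 libraries. It was at 10.1, 9.76 and 10.5 CPM in 12w Wt and 26.4, 21.8 and 21.1 CPM in 12w Tg7 islets. Fstl1 rose 1.48-fold at 2w (log2 fold change 0.56 ± 0.15 (SE), adjusted p = 0.0306) and 2.28-fold at 12w (log2 fold change 1.19 ± 0.16 (SE), adjusted p = 0.000166). The 2w call was lost without 2w Wt replicate 2 or 3, 2w Tg7 replicate 1 or 3 or 12w Tg7 replicate 2 (log2 fold changes 0.47 to 0.71, adjusted p of up to 0.138). The stellate and fibroblast marker sum rose in the same comparisons, and its part in the Fstl1 values was not tested.

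Fstl3 (chr10:79240017-79245375, plus strand, mm9), a follistatin-like trap for activins, was at 3.38, 3.46 and 3.62 CPM in the 2w Wt libraries and at 7.19, 7.46 and 6.30 CPM in the 2w Tg7 libraries. It was at 5.92, 3.09 and 3.20 CPM in 12w Wt and 6.54, 6.41 and 7.32 CPM in 12w Tg7 islets. It rose 2.0-fold at 2w (log2 fold change 1.0 ± 0.26 (SE), adjusted p = 0.0269), and its 12w value was just short of the threshold (0.76 ± 0.27, adjusted p = 0.0534) and past it without 12w Wt replicate 1 (1.08, adjusted p = 0.00671). The 2w call was lost without any single 2w Wt replicate or 2w Tg7 replicate 1 or 2 (log2 fold changes 0.95 to 1.06, adjusted p of up to 0.0898), and its gene model overlaps that of Prss57 on the other strand. Fstl5 (chr3:75878192-76513941, plus strand, mm9), a less studied relative, was at 2.08, 1.99 and 1.70 CPM in the 2w Wt libraries and at 3.09, 4.48 and 3.37 CPM in the 2w Tg7 libraries. It was at 2.02, 0.793 and 2.07 CPM in 12w Wt and 5.58, 6.25 and 6.97 CPM in 12w Tg7 islets. Fstl5 rose 3.87-fold at 12w (log2 fold change 1.95 ± 0.35 (SE), adjusted p = 0.00128), and was 0.92 ± 0.34 at 2w (adjusted p = 0.0944), called there without 12w Wt replicate 2 (0.92, adjusted p = 0.0424). Follistatin (Fst) itself was near the floor, with 0, 1 and 3 reads in the 12w Wt libraries and an uncalled 12w log2 fold change of 1.58 ± 0.95 (adjusted p = 0.258). Chrd, Fstl4 and Grem1 were not called at either age, and Grem1, which carries a site of 8 bases for miR-7a, was at 1.51, 1.59 and 1.47 CPM in 12w Wt and 0.507, 0.608 and 0.572 CPM in 12w Tg7 islets, without overlap but also without a call (log2 fold change −1.42 ± 1.0, adjusted p = 0.344).

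The latent TGFβ binding proteins hold the inactive TGFβ complex in the matrix, and of the 4 genes Ltbp2 rose at 2w and Ltbp3 and Ltbp4 at 12w. This was 25% at 2w and 50% at 12w, against 6.07% and 12.5% of all tested genes. Ltbp2 (chr12:86124162-86217482, minus strand, mm9), the member that does not bind latent TGFβ, was at 6.17, 5.15 and 4.94 CPM in the 2w Wt libraries and at 27.8, 13.6 and 13.8 CPM in the 2w Tg7 libraries. It was at 4.66, 1.98 and 1.80 CPM in 12w Wt and 1.92, 1.55 and 1.83 CPM in 12w Tg7 islets. At 2w the Tg7 libraries were all above the Wt libraries, with Tg7 replicate 1 the highest, and Ltbp2 rose 3.40-fold (log2 fold change 1.76 ± 0.35 (SE), adjusted p = 0.00544). This call held with each library left out (adjusted p of up to 0.0369). Among the 2w Tg7 libraries, replicate 1 also had the highest stellate, macrophage, lymphocyte and acinar marker sums. Its α-cell, endothelial and ductal sums were the lowest. The part of these cells in the Ltbp2 values was not tested. At 12w the Ltbp2 levels of the groups overlapped (log2 fold change −0.61 ± 0.39, adjusted p = 0.295). The effect differed between the ages by −2.38 ± 0.52 (adjusted p = 0.0437), a call that held only without 2w Tg7 replicate 2 or 12w Wt replicate 2 or 4 among the libraries left out (log2 differences −2.61 to −1.89, adjusted p of up to 0.133).

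Ltbp3 (chr19:5740904-5758532, plus strand, mm9), a TGFβ-binding member known from bone, was at 62.4, 60.7 and 66.5 CPM in the 2w Wt libraries and at 71.9, 90.7 and 72.7 CPM in the 2w Tg7 libraries. It was at 57.6, 70.3 and 64.4 CPM in 12w Wt and 114, 109 and 104 CPM in 12w Tg7 islets. It rose 1.70-fold at 12w (log2 fold change 0.77 ± 0.12 (SE), adjusted p = 0.000536), with 0.31 ± 0.12 at 2w (adjusted p = 0.116). Ltbp4 (chr7:28090155-28122711, minus strand, mm9), a member that also takes part in elastic fibre assembly, was at 128, 119.6 and 125 CPM in the 2w Wt libraries and at 139, 121 and 114 CPM in the 2w Tg7 libraries. At 12w it was at 25.7, 35.9 and 34.1 CPM in 12w Wt and 71, 66.8 and 72.7 CPM in 12w Tg7 islets. Ltbp4 did not separate the groups at 2w (log2 fold change 0.01 ± 0.13, adjusted p = 0.983) and rose 2.19-fold at 12w (log2 fold change 1.13 ± 0.13 (SE), adjusted p = 5.05e-05). This difference between the ages was 1.12 ± 0.19 (adjusted p = 0.00952) and held with each library left out. Ltbp1 was not called (log2 fold change 0.87 ± 0.44 at 2w and 1.13 ± 0.46 at 12w).

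Bmp1 (chr14:70874364-70920067, minus strand, mm9) shares the name but encodes a metalloprotease that cleaves procollagens and releases latent TGFβ complexes. It was at 129.7, 142 and 142 CPM in the 2w Wt libraries and at 108, 115 and 116 CPM in the 2w Tg7 libraries. It was at 56.1, 70.9 and 86.2 CPM in 12w Wt and 102, 102 and 111 CPM in 12w Tg7 islets. At 2w the Tg7 libraries were below the Wt libraries without a call (log2 fold change −0.29 ± 0.14, adjusted p = 0.192), and at 12w Bmp1 rose 1.47-fold (log2 fold change 0.56 ± 0.14 (SE), adjusted p = 0.0102). The difference between the ages, 0.85 ± 0.19, was just short of the threshold (adjusted p = 0.0540). Bmp2k, a kinase that the symbol rule also takes in, was not called at either age (0.26 ± 0.25 and −0.31 ± 0.26).

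**Figure D4:**
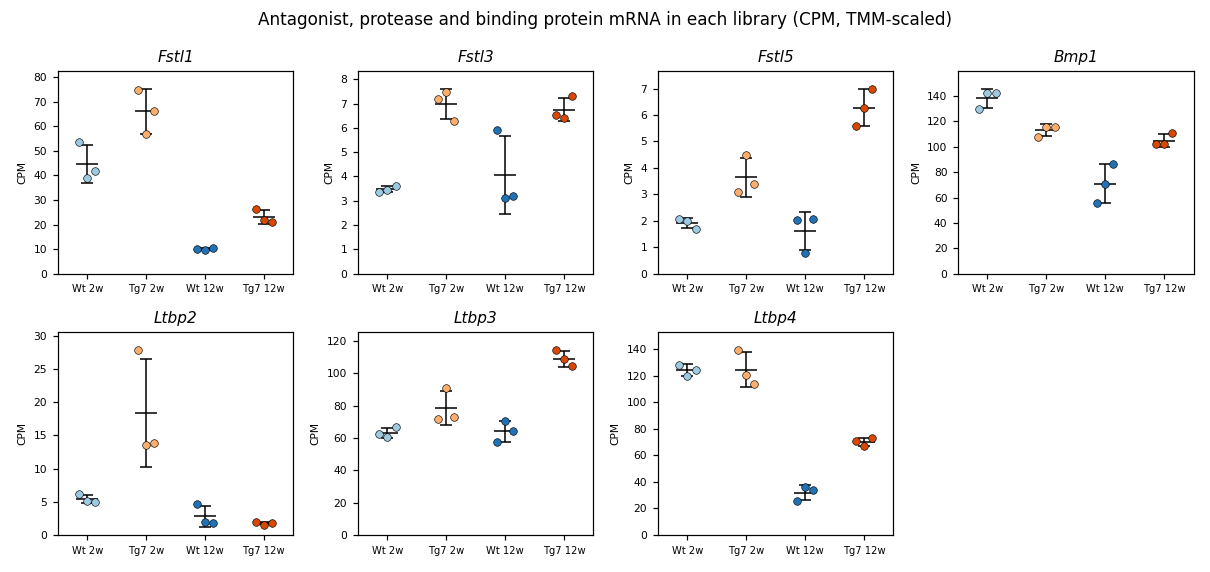
CPM (y axis, TMM-scaled, starting at 0) of 3 follistatin-like genes, the protease gene Bmp1 and 3 latent TGFβ binding protein genes, with 1 point per library and bars for the mean ± SD of 3 libraries per group. Fstl1, Bmp1 and Ltbp4 are lower in 12w than in 2w Wt islets with 12w Tg7 libraries in between, and Ltbp2 is highest in 2w Tg7 islets.

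In the direct test of the Tg7 effect at 12w against that at 2w, Gdf10, Bmp3 and Ltbp4 were called larger at 12w and Ltbp2 smaller, or 3 and 1 of 50, against 0.871% and 0.307% of all tested genes. For the other 46 genes a difference between the ages was not shown. With the 12w Wt replicate 4 left out, 6 were larger and 1 smaller, the added genes being Acvr1b, Bmp1 and Bmp2.

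Between 2w and 12w in Wt islets, more superfamily genes fell than rose. Of the 50 tested genes 10 fell and 1 rose, against 7.91% and 7.9% of all tested genes, and the median log2 fold change was −0.28 against 0.04. This comparison shares its Wt libraries with the Tg7 comparisons, so the values of the genes are set side by side with no test of their relation. Fstl1 went from 44.7 ± 7.71 CPM (SD, n = 3) to 10.1 ± 0.387 CPM (log2 fold change −2.14 ± 0.16 (SE), adjusted p = 1.81e-06) and was at 23.1 ± 2.88 CPM in 12w Tg7 islets. Ltbp4 went from 124 ± 4.37 to 31.9 ± 5.47 CPM (log2 fold change −1.95 ± 0.14 (SE), adjusted p = 8.72e-07) and was at 70.2 ± 3.05 CPM in 12w Tg7 islets. For both genes the 12w Tg7 libraries lay above all 12w Wt libraries and below all 2w Wt libraries.

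Tgfb1, Tgfb2 and Tgfbr2 also fell with age in Wt islets (log2 fold change −1.13 ± 0.16, −1.67 ± 0.30 and −1.30 ± 0.21, adjusted p = 0.000427, 0.00237 and 0.000844). So did Smad3 (−1.41 ± 0.22, adjusted p = 0.000686) and Smad6 (−0.75 ± 0.18, adjusted p = 0.0129, lost without 2w Wt replicate 3 at 0.0505). Bmp1 fell by a similar amount (−0.96 ± 0.14, adjusted p = 0.000458), as did Acvrl1 (−0.74 ± 0.15, adjusted p = 0.00462). Fst went from 13, 9 and 17 reads to 0, 1 and 3 reads, and its adjusted p of 0.0497 crossed the threshold with 10 of the 12 libraries left out in turn, the exceptions being 12w Wt replicate 4 and 12w Tg7 replicate 3 (up to 0.134, log2 fold changes −3.84 to −2.38). The stellate and endothelial marker sums given above were also lower in 12w than in 2w Wt libraries, without overlap, and their part in these values was not tested.

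No BMP ligand was called with age by edgeR, with 0 at an unadjusted p below 0.05 and 0 by DESeq2, and Bmp3 was at 3.03 ± 0.270 CPM in 2w Wt and 2.72 ± 1.09 CPM in 12w Wt islets. Without the 12w Wt replicate 4, the counts were 2 higher and 20 lower with age. With library size alone 21 genes were called, each of them lower.

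Genes of the same pathway outside the symbol rule were read from 6 lists, 84 genes in all, of which 74 were tested. At 2w 13 rose and 1 fell, or 17.6% and 1.35% of those tested against 6.07% and 4.55% of all genes, and at 12w 30 rose and 7 fell, or 40.5% and 9.46% of those tested against 12.5% and 11.2% of all genes. Among the other ligands, receptors and co-receptors, 3 of 8 tested genes rose and 2 fell at 12w (37.5% and 25%, against 12.5% and 11.2% of all genes). Bambi, a decoy receptor that is itself induced by BMP, was at 35.8 ± 11.7 CPM (SD, n = 3) in 12w Wt and 108 ± 10.9 CPM in 12w Tg7 islets (log2 fold change 1.59 ± 0.20 (SE), adjusted p = 7.31e-05). It was also higher at 2w (log2 fold change 0.69 ± 0.19 (SE), adjusted p = 0.0361), a call lost without any single 2w Wt replicate, 2w Tg7 replicate 2 or 12w Tg7 replicate 2 or 3 (log2 fold changes 0.53 to 0.79, adjusted p of up to 0.133). Eng, the endothelial co-receptor endoglin, rose at 12w (log2 fold change 0.93 ± 0.11 (SE), adjusted p = 5.35e-05), as did the BMP co-receptor Rgma (log2 fold change 1.11 ± 0.25 (SE), adjusted p = 0.00596). The nodal antagonist Lefty1 fell (log2 fold change −1.18 ± 0.26 (SE), adjusted p = 0.00455), as did Rgmb, another co-receptor gene (log2 fold change −0.48, adjusted p = 0.0403). The Rgmb call was lost with 8 of the 12 libraries left out in turn (log2 fold changes −0.62 to −0.42, adjusted p of up to 0.154). Among other settings it was also lost with library size alone.

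Of 17 tested genes for activation and storage of latent TGFβ, 5 rose and 1 fell at 2w, and 8 rose and 2 fell at 12w. At 2w these were 29.4% and 5.88%, against 6.07% and 4.55% of all tested genes. At 12w they were 47.1% and 11.8%, against 12.5% and 11.2%. Dcn, the TGFβ-binding proteoglycan decorin, went from 3.82 ± 1.29 CPM in 12w Wt to 43.7 ± 9.40 CPM in 12w Tg7 islets (log2 fold change 3.55 ± 0.41 (SE), adjusted p = 4.44e-05). Dcn is also among the stellate, pericyte and fibroblast markers counted above, and the part of those cells was not tested. The gelatinase gene Mmp2 rose from a low level (0.479 to 2.27 CPM, log2 fold change 2.49 ± 0.60 (SE), adjusted p = 0.00841), with log2 fold changes of 1.87 to 3.87 as single libraries were left out, the lowest without 12w Wt replicate 4 and the highest without 12w Wt replicate 1. The integrin subunits Itgav and Itgb5, which form a receptor able to activate TGFβ, fell at 12w (−1.25 ± 0.25, adjusted p = 0.00297, and −0.55 ± 0.11, adjusted p = 0.00215), that of Itgb5 being lost with library size alone. Of 9 tested BMP antagonists outside the rule, Crim1 (0.82 ± 0.17, adjusted p = 0.00281) and Nbl1 (0.75 ± 0.25, adjusted p = 0.0413) rose and Twsg1 (−0.86 ± 0.20, adjusted p = 0.00645) fell at 12w, the last lost with library size alone. These were 22.2% higher and 11.1% lower, against 12.5% and 11.2% of all tested genes, so the share lower was near that of all genes. The Nbl1 call was lost without 2w Wt replicate 2 or 3, 12w Wt replicate 1 or 4 or any 12w Tg7 replicate (log2 fold changes 0.52 to 1.06, adjusted p of up to 0.147). Of 16 tested Smad partners and turnover genes, 4 rose and 1 fell at 12w (25% and 6.25%, against 12.5% and 11.2% of all tested genes). They included the repressor Tgif1 (log2 fold change 1.16 ± 0.20 (SE), adjusted p = 0.00109) and the ubiquitin ligase Nedd4l (log2 fold change 0.68 ± 0.12 (SE), adjusted p = 0.00127), which were higher at 2w as well (0.73 ± 0.19, adjusted p = 0.0294, and 0.62 ± 0.12, adjusted p = 0.00504). The 2w call of Tgif1 was lost without any single 2w Wt replicate or 2w Tg7 replicate 2 (log2 fold changes 0.57 to 0.81, adjusted p of up to 0.145).

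Among 17 tested genes described as direct TGFβ and activin targets, 6 rose at 2w (35.3%, against 6.07% of all tested genes). They included the collagen genes Col1a1 and Col1a2, and Fn1 and Itgb6. With the 12 libraries left out in turn, the 2w call of Fn1 (adjusted p = 0.0447) was lost with 9 of them. That of Itgb6 (adjusted p = 0.0360) was lost with 6, and its 12w log2 fold change was −0.60 without a call. At 12w 9 rose and 1 fell (52.9% and 5.88%, against 12.5% and 11.2%). The highest were the fibrillar collagens Col1a1 (3.44 to 53.7 CPM, log2 fold change 4.0 ± 0.24 (SE), adjusted p = 1.65e-07) and Col1a2 (log2 fold change 2.37 ± 0.22 (SE), adjusted p = 5.77e-06), and Ctgf, a matricellular protein (log2 fold change 1.99 ± 0.20 (SE), adjusted p = 1.45e-05), whose 2w value was not called (0.15 ± 0.18, adjusted p = 0.641). These collagens are themselves part of the stellate, pericyte and fibroblast marker sum given above, so its rise is not separate from theirs. The part of those cells was not tested. Nuak1, a kinase gene, fell (log2 fold change −0.93 ± 0.24 (SE), adjusted p = 0.0118), a call lost without 12w Tg7 replicate 2 (adjusted p = 0.0515) and with library size alone. The feedback genes Skil and Pmepa1, named here after their values were seen, were not called at 12w (0.10 ± 0.19 and −0.06 ± 0.19, adjusted p = 0.749 and 0.859).

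Among 11 tested BMP target genes, 5 were called at 12w (45.5%), each of them higher, against 12.5% of all tested genes. They were Bambi, Id1, Id3, Hey1 and Stmn2. Hey1, a repressor shared with Notch signalling, was 1.0 ± 0.26 (adjusted p = 0.0124). Stmn2, a microtubule regulator of neurons, was 2.65 ± 0.75 (adjusted p = 0.0207), lost without 12w Wt replicate 1 or 2 or 12w Tg7 replicate 1 or 3 (adjusted p of up to 0.0655). Id1 and Id3, the inhibitors of differentiation that report BMP signalling in many cells, were smaller in effect, at 0.56 ± 0.19 (adjusted p = 0.0464) and 0.81 ± 0.14 (adjusted p = 0.00105), and Id2 was not called (−0.28 ± 0.13, adjusted p = 0.124). Id1, Id3 and Id2 were named after their values were seen.

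**Figure D5:**
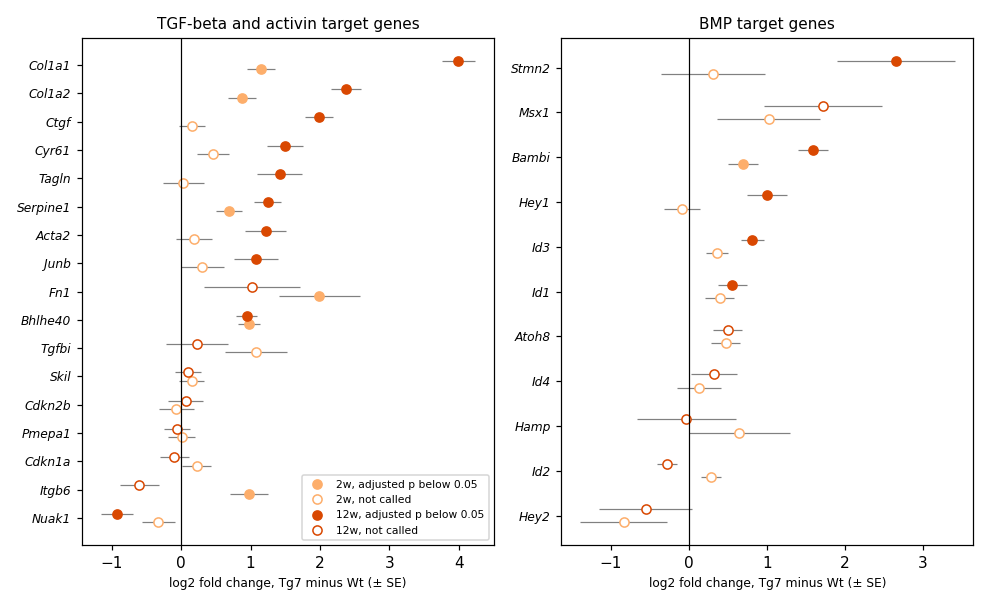
Log2 fold change (x axis, ± SE) of the tested TGFβ and activin target genes (left) and BMP target genes (right) in Tg7 against Wt islets at 2w (light) and 12w (dark), with filled points called and open points not called. Col1a1 is the farthest right at 12w, at 4.0, and Skil, Pmepa1, Cdkn1a and Cdkn2b lie near 0.

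The promoters of Gdf10 and Bmp6, ligand genes that rose at both ages, are printed as examples (RefSeq, GRCm38.p6, 300 bases around the annotated start). Capitals mark CAGAC, a Smad-binding element, and GGCGCC, a GC-rich Smad site. The promoter of Fstl1, which also rose at both ages, held no match to either motif and is not printed. Gdf10 lies at chr14:33923337-33923636 and Bmp6 at chr13:38345466-38345765, both on the plus strand.
Gdf10: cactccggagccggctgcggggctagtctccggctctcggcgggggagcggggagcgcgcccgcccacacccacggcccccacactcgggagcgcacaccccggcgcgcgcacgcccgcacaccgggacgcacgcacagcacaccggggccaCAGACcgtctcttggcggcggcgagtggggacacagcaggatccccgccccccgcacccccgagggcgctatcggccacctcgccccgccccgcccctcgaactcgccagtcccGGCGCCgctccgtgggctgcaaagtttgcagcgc
Bmp6: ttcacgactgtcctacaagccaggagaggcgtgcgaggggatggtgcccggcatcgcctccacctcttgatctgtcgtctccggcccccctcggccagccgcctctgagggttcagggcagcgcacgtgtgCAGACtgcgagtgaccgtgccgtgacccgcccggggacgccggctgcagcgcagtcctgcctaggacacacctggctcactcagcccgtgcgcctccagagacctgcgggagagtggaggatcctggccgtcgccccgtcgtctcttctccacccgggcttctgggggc

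Both motifs were searched on both strands. CAGAC was present in 49.6% of the 32851 mouse promoters of this length, in 23 of 46 superfamily genes with a promoter entry and in 5 of 11 of those called higher at 12w. GGCGCC was present in 11.9% of all promoters, in 11 of 46 superfamily genes and in 1 of 11 of those called higher at 12w, Gdf10. Of the 19 members called higher at 12w, only these 11 had a promoter entry, and Bmp2, Bmp3 and Bmp7 had none. A match in this window is a description and not a measured site.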

How the data were processed

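RNA from pooled islets of 12 samples was sequenced. According to the labels and methods, the authors trimmed reads with Trimmomatic, aligned them to mm9 with TopHat2 (version 2.0.11) and deposited raw counts per Ensembl gene made with featureCounts, without normalisation. Whether strand was used is not stated, so overlapping and antisense genes remain uncertain.

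From these counts, 15961 of 37991 genes passed filterByExpr (minimum count 10, minimum total 15). edgeR 4.0.16 (R 4.3.3) was used with TMM factors and quasi-likelihood tests on a model of 4 group means over all 12 libraries, with contrasts for Tg7 against Wt at 2w and at 12w, the difference of both, and 12w against 2w in Wt. Adjusted p values are Benjamini-Hochberg over all tested genes, with a threshold of 0.05. Levels are TMM-scaled CPM, and levels between genes are compared per kilobase of exon. Total counts ranged from 11610697 to 17515758 per library. The pools of a group differed by more than sampling noise in every pair.

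Other factors (RLE, library size alone), DESeq2 1.42.0, no filter, a replicate block, a fit of each age alone and leaving out each library were tried. The members and lists were chosen with earlier results of these data known. Named genes were the members called at 2w, at 12w or in the difference, the core ligands, receptors and Smads, the 3 called members with the highest and the 3 with the lowest change with age in Wt islets, and from each pathway list up to 3 called genes with the highest and 3 with the lowest change at each age. Other members are named to account for the whole set or were chosen after their values were seen. miR-7 sites were searched in GENCODE M1 3′ UTRs on mm9, and miRNA and promoter sequences came from RefSeq (GRCm38.p6). 1 member is counted but not reported by name here.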

Additional observations from a re-analysis of the deposited data

Results flagged for a closer look

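The Tg7 effect differed between 2w and 12w for 4 superfamily genes by the interaction contrast of edgeR. The log2 effect at 12w minus that at 2w was 3.44 for Gdf10, 2.22 for Bmp3, 1.12 for Ltbp4 and −2.38 for Ltbp2. For Gdf10, Bmp3 and Ltbp4 the call was kept with each of the 12 libraries left out. That of Ltbp2 was lost with 9 of the 12 libraries left out in turn, all but 2w Tg7 replicate 2 and 12w Wt replicates 2 and 4, with an adjusted p of up to 0.133 and differences between −2.61 and −1.89. The study describes the 12w Tg7 mice as hyperglycaemic and the 2w Tg7 mice as normoglycaemic, and the 2w and 12w libraries came from different mice. Age and glycaemia of the Tg7 mice therefore cannot be told apart in these differences.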

How the results depend on the processing

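Of 80 called values of named genes, 60 stayed called in every alternative setting that could be fitted (5 or 6 a value), 51 with every single library left out and 46 in both, and no called value changed sign. With 1 library left out in turn, the number of superfamily genes called ranged from 5 to 13 at 2w (9 with all libraries), from 15 to 26 at 12w (21), from 3 to 7 for the difference between the ages (4) and from 8 to 22 with age in Wt islets (11). The lowest 2w count was without 2w Wt replicate 3, and the highest without 12w Wt replicate 4. The other pathway genes called ranged from 6 to 18 at 2w (14) and from 29 to 37 at 12w (37). For the difference between the ages, 7 genes were called without a filter on low counts and 7 with the replicate block. With age in Wt islets, 21 were called with library size alone and 20 with the replicate block. Library size alone shifted the median over all tested genes (log2) to 0.19 at 2w and 0.43 at 12w, and the split of superfamily calls at 12w from 19 higher and 2 lower to 28 higher. Fitting each age alone ended the 12w calls of Acvr1c, Bmp1, Smad3, Smad7, Tgfb1 and Tgfbr3, and leaving out the filter that of Tgfb1. The causes of these changes were not tested. The residuals of same-numbered Wt and Tg7 libraries correlated at −0.0214, −0.167 and −0.0343 at 2w and at −0.0894 and −0.0112 at 12w. These values showed no pairing by replicate number, but with 3 pools per group they cannot exclude it. The replicate block gave 13 calls at 2w and 21 at 12w, and 12w Wt replicate 4, which shares its number with no other library, is in effect left out there. Among the named genes it ended the 12w calls of Acvr1c and Smad3 and of the pathway genes Hey1, Nbl1, Nuak1, Fbn2 and Rgmb, and added those of Acvr1b, Acvr2a and Itgb6. At 2w it added Bmp2, Smad7, Tgfbr3 and Tgfbr1 and the pathway genes Crim1 and Twsg1, and ended Fn1. The 13 genes below the filter were not tested, being limited by depth and, for Gdf1, by its overlap with Lass1 on the same strand.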
